A study of Bos taurus with 38 samples.

Results

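The most abundant oocyte-restricted genes of cattle cumulus-oocyte complexes were chosen by their measured levels. Each count was divided by its library total and multiplied by 1000000 to give CPM (a share of the library). Genes whose mean was under 1 CPM over 19 cumulus libraries were ranked by their mean over 19 oocyte libraries, and the first 200 of 27607 genes were taken. They are 4.19% of the 4769 genes with an oocyte mean at or above that of the last gene taken. A list of 15 well known oocyte genes was to be left out. Only 3 of these names (MMP25, TLE6 and KIT) could be tied to an identifier and none of the 3 was among the 200, so that 0 genes were removed. The other 12 names were not matched, and those genes may be among the 167 below that have no symbol. Of the 200 genes, 33 had a symbol and 167 are counted by their Ensembl identifier only. The oocyte level and the cumulus level of these genes are what chose them, and are given below as a description.

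The oocytes were single cells from antral follicles of abattoir ovaries of Bos taurus, and each was separated from its own cumulus cells. All complexes were stained with brilliant cresyl blue (BCB), a dye that the enzyme glucose-6-phosphate dehydrogenase renders colorless. BCB positive oocytes (n = 9) kept the blue color and BCB negative oocytes (n = 10) lost it. The animal behind a complex, its age and its breed are not given in the sources used here. The p-values therefore measure the spread between complexes, some of which may come from the same animal. The complexes carry numbers in 3 runs whose meaning is not stated. Numbers 6 to 24 hold 3 BCB positive complexes and 1 BCB negative complex, numbers 65 to 74 hold 6 and 3, and numbers 86 to 91 hold 0 and 6.

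A growing oocyte transcribes and stores messenger RNA that it later uses when it is itself silent, during meiotic maturation and the first cleavages. Cumulus cells are somatic cells that surround the oocyte and reach it through thin projections with gap junctions. Genes read in the oocyte and not in the cumulus cells include the zona pellucida proteins of the egg coat, RNA-binding proteins that keep stored messages silent, and germ cell transcription factors.

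Oocyte libraries held 8886070 to 29810354 counts and cumulus libraries 1103200 to 10430148. Of the 38 libraries, 4 stood apart. The cumulus libraries of the BCB negative complexes 66 and 68 had the highest level of oocyte-restricted transcripts, and the oocyte library of the BCB positive complex 72 had the highest level of cumulus transcripts. In oocyte 72, the 9 cumulus and granulosa markers with an identifier (of 10 listed: FSHR, AMHR2, INHA, CYP19A1, FOXL2, NR5A1, GJA1, HSD3B1 and GSTA1) summed to 1255 CPM, against 23.6 to 350.2 CPM in the other 18 oocytes. In cumulus cells the same markers summed to 1402 CPM in the BCB negative complex 6, the lowest, and to 3687 to 12403 CPM in the other 18. The 200 genes summed to 79.0 CPM in that cumulus library. Of 9 oocyte markers listed, 3 had an identifier. The egg coat genes ZP2 and ZP3 had at least 1435 and 1261 CPM in each oocyte library. The other, DAZL, which is among the 200 genes, had 5.22 to 355 CPM in oocytes. Of 9 theca, blood, immune and endothelial markers only VWF had an identifier, at 14.96 to 82.9 CPM in oocytes and 0.462 to 16.3 CPM in cumulus cells, so those cell types were otherwise not checked.

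In the oocyte, the 200 genes were read in every cell. The smallest count of any of them in any oocyte was 75, and all 200 were over 2 CPM in all 19 oocytes. Their means ran from 57.1 to 602 CPM with a median of 94.0. Together they took 2.40% ± 0.154 (SD, n = 9) of the counts in BCB positive oocytes and 2.42% ± 0.0982 (SD, n = 10) in BCB negative oocytes. The lowest, median and highest shares were 2.06%, 2.40% and 2.61% in BCB positive oocytes and 2.26%, 2.44% and 2.56% in BCB negative oocytes, so the groups overlapped. The lowest share was that of oocyte 72 (95% exact binomial interval 2.059 to 2.070%, counting error only), and the next BCB positive oocyte had 2.35%. The part of the cumulus transcripts in the low share of oocyte 72 was not tested.

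In cumulus cells, the 200 genes were at the edge of detection. A gene was found in 2 to 18 of the 19 cumulus libraries, with a median of 10, and its counts over all 19 libraries summed to 2 to 105 with a median of 23. Of the named genes, CDS1, an enzyme that makes the phospholipid precursor CDP-diacylglycerol, had a count in 18 cumulus libraries, and KCNN3 and COLEC12 had one in 17. The mean oocyte level was 61.5 to 3973 times the mean cumulus level, with a median of 208, which the rule set in part.

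The summed level of the 200 genes in cumulus cells had its lowest, median and highest values at 24.9, 30.3 and 51.9 CPM in BCB positive complexes. In BCB negative complexes these values were 34.1, 89.2 and 629 CPM. Of the 10 BCB negative cumulus libraries, 9 lay above the highest BCB positive library and complex 88 lay among the BCB positive ones. Complexes 87 and 90 lay just above it, at 52.4 CPM (95% exact binomial interval 45.4 to 60.1) and 54.2 CPM (47.7 to 61.3). The highest BCB positive library, complex 74, had 51.9 CPM (46.3 to 58.1), so these intervals overlapped. Complexes 86 to 91 held BCB negative libraries only, so class and run of numbers cannot be told apart for them. Complex 66 had 499 CPM (95% exact binomial interval 465 to 534) and complex 68 had 629 CPM (583 to 678), and the next highest, complex 91, had 136 CPM. Without these 2 libraries the BCB negative range was 34.1 to 136 CPM, with a median of 76.3. No test was made on this sum. The 9 cumulus and granulosa markers, at 6718, 8451 and 12403 CPM in the lowest, median and highest BCB positive cumulus library, were at 1402, 5291 and 10257 CPM in BCB negative ones and at 5586 and 4815 CPM in 66 and 68. Depth differed too, and the part of either was not tested. BCB negative cumulus libraries were smaller, with a median of 2252271 counts against 5853816, and 66 and 68 were the smallest at 1624128 and 1103200. RNA of the oocyte within a cumulus sample and RNA made by the cumulus cells cannot be told apart in these counts, nor can fewer cells of a type and less RNA per cell.

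Cumulus libraries 66 and 68 held 2.95% of all cumulus counts but 26.5% of the cumulus counts on the 200 genes and 54.0% of their summed cumulus CPM. In library 66, 175 of the 200 genes had a count, and in library 68, 176, against 54 to 134 in the other 17 libraries. For 172 of the 200 genes, the highest cumulus CPM was in 1 of these 2 libraries. They are the smallest cumulus libraries, so that 1 count gives a higher CPM there than elsewhere. The share over all genes is not given here. As a ratio to the oocyte of the same complex, the summed level was 2.16% in complex 66 and 2.79% in complex 68, and 0.106 to 0.530% elsewhere. The same ratio for ZP2 and ZP3, which are not among the 200 genes, was 1.458% and 1.154% in these complexes and 0 to 0.212% elsewhere.

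**Figure D1:**
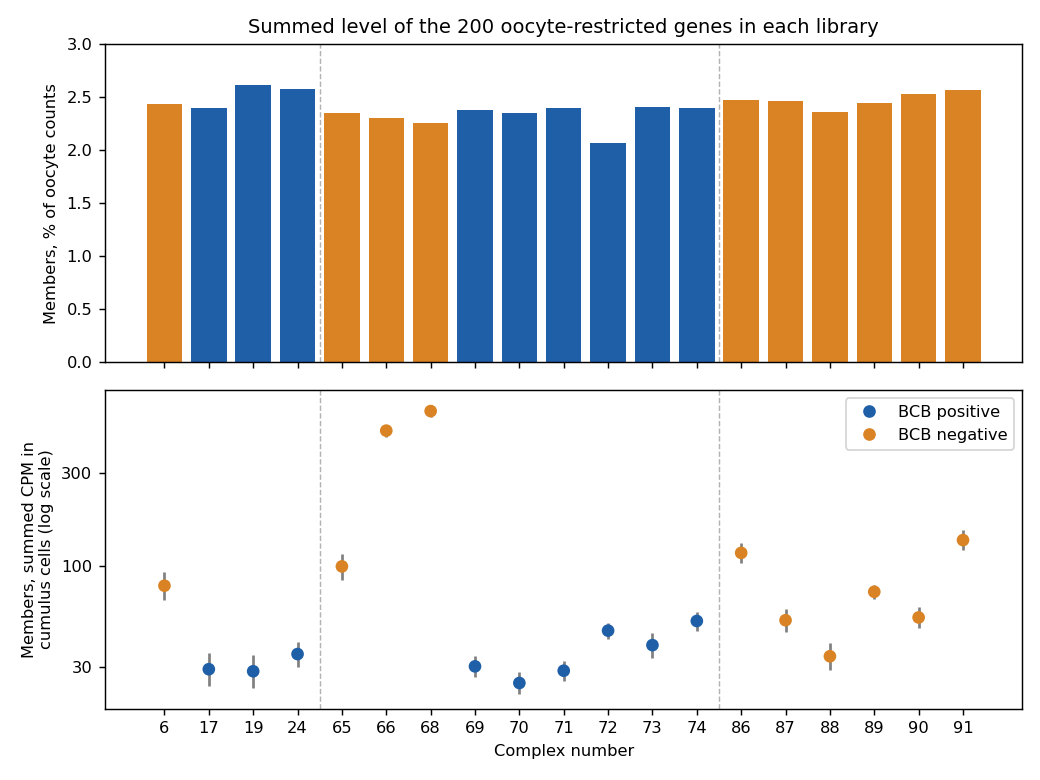
Summed level of the 200 oocyte-restricted genes in each complex, ordered by complex number, with the share of oocyte counts in percent above and the summed CPM in cumulus cells on a log scale below. Gray bars are 95% exact binomial intervals and dashed lines separate the runs of numbers. Oocyte shares lie between 2.06 and 2.61%, and the cumulus libraries of complexes 66 and 68, at 499 and 629 CPM, lie above all others.

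The genes under the cumulus limit of the rule changed when cumulus libraries 66 and 68 were left out. These 2 were picked for their high level of the 200 genes, and no other pair was left out for comparison. With all 19 cumulus libraries, the genes nearest the limit had means of 0.978, 0.980 and 0.984 CPM inside it and 1.000, 1.009 and 1.009 CPM outside it. At the other edge, the last genes taken had oocyte means of 57.1, 57.2 (PAX9) and 57.2 CPM, and the first ones not taken had 55.8, 55.4 and 55.4 CPM. Without cumulus libraries 66 and 68, 307 genes at the oocyte level of the 200 were under the limit, 107 more than before, and 21 of the 107 would be ranked above all of the 200 genes by the rule. The first 200 would then share 103 genes with those described here.

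Of the 107 genes, 19 had a symbol. ZP2 and ZP3, which build the egg coat, had oocyte means of 1893 and 1734 CPM. The cumulus mean of ZP2 was 2.89 CPM with all libraries and 0.832 CPM without the pair, and it was 17.2 CPM in library 66 and 23.6 CPM in library 68. For ZP3 the cumulus mean was 4.49 CPM and then 0.756 CPM, with 48.0 and 24.5 CPM in the pair. YBX2, a germ cell protein that binds and stores messenger RNA, had a cumulus mean of 1.88 CPM with the pair and 0.389 CPM without it. GATA2, a zinc finger transcription factor, had 1.41 and 0.416 CPM. Others were RGS16, SAXO1, SYTL2, CHL1, RND1, CKMT1A, RASD2, GCNT1, PLCH1, ICA1L, MYO5C, PALM3 and CFTR.

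**Figure D2:**
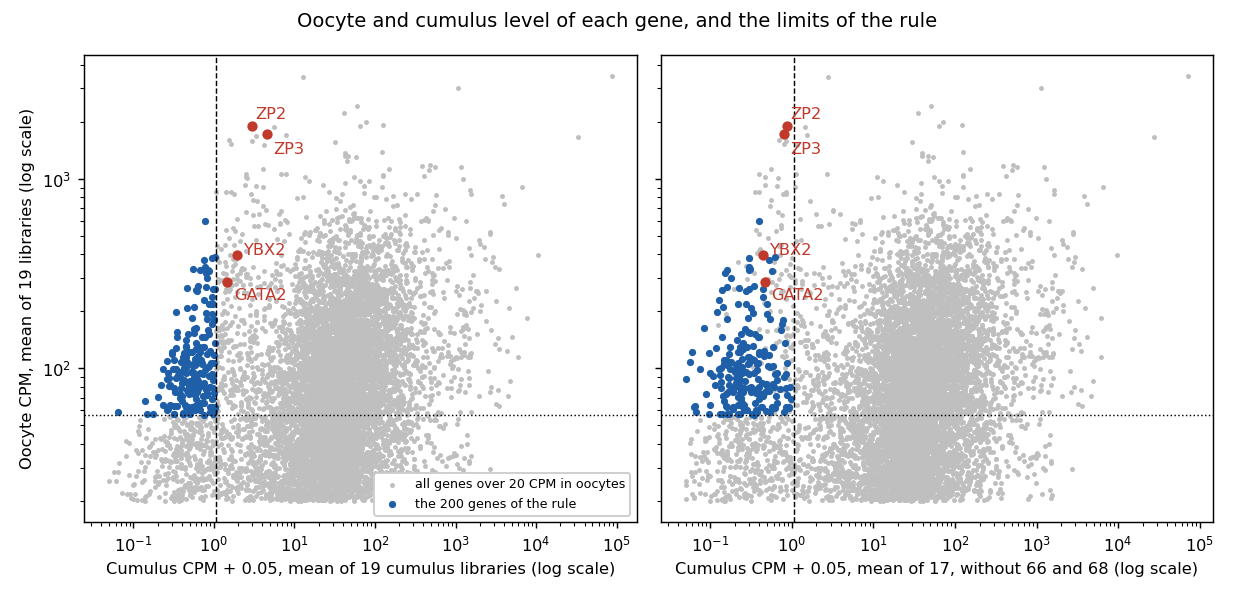
Mean oocyte CPM against mean cumulus CPM plus 0.05, both on log scales, for genes over 20 CPM in oocytes (gray) and the 200 oocyte-restricted genes (blue), with all 19 cumulus libraries on the left and without libraries 66 and 68 on the right. The dashed line is the limit of 1 CPM in cumulus cells and the dotted line the lowest oocyte mean of the 200 genes. ZP2, ZP3, YBX2 and GATA2 (red) lie right of the limit on the left and left of it on the right.

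The 33 genes with a symbol were not a random draw. Symbols came from the supplementary tables of the study, and 25 of the 33 were in the 1997 held entries of its list for BCB positive against negative oocytes, which is ordered by p-value. Genes with a symbol therefore lean towards differences between the BCB groups (10 of 33 had an unadjusted p under 0.05, against 7 of 167 without a symbol), and they are used here to show the kinds of gene and not their frequency. All 33 are protein coding in RefSeq. They included 8 genes of transcription and RNA, 7 channels, transporters and receptors, 5 genes of traffic and cytoskeleton, 3 enzymes of lipids and sugar chains, 3 genes of the extracellular matrix, 3 of signalling and 4 others. Lists of known oocyte genes, from the zona pellucida to meiosis and piRNA, named 223 genes, of which 33 had an identifier. DAZL and TCL1A were among the 200 genes, 25 of the 33 had a cumulus mean of 1 CPM or more, and 6 were under that limit but had an oocyte mean below the last gene taken.

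The spread of the 200 genes between oocytes ranged widely. Their coefficient of variation (CV, the SD as a percentage of the mean) had a median of 20.2%, against 22.9% over the 12753 genes tested and 17.05% over the 4645 of these in the same CPM range. In 78 of the 200 genes the highest oocyte had less than 2 times the CPM of the lowest, in 21 more than 4 times, and in 4 more than 10 times. The shares of all genes tested are not given for these counts, which describe the 200 genes only. The steadiest was ENSBTAG00000014523, at 228, 253 and 306 CPM in the lowest, median and highest oocyte, with a CV of 7.69%. Of the named genes the steadiest was the homeobox gene HHEX, at 165 to 303 CPM and a CV of 13.8%.

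DAZL (ENSBTAG00000000502), a germ cell RNA-binding protein that promotes translation of stored messages, varied the most, with a CV of 95.02%. Its lowest, median and highest values were 5.22, 30.8 and 230 CPM in BCB positive oocytes and 53.0, 87.4 and 355 CPM in BCB negative oocytes. Of the 9 BCB positive oocytes, 6 lay below the lowest BCB negative oocyte, while oocyte 70 of the BCB positive group lay above 9 of the 10 BCB negative oocytes. The log2 fold change, BCB positive against negative, was -1.07 ± 0.61 (SE) and did not pass the test (edgeR quasi-likelihood FDR 0.888). In cumulus cells DAZL had 0 to 18 counts, and 16 of the 19 libraries had at least 1.

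NEFL, the light neurofilament protein, varied the most after DAZL and SEC16B, with a CV of 61.9%. It had 31.6, 266 and 663 CPM in the lowest, median and highest BCB positive oocyte and 30.1, 240 and 379 CPM in BCB negative oocytes. The low oocytes, 17 and 68, came from both BCB groups and from different runs, and the groups overlapped. The log2 fold change was 0.42 ± 0.47 (SE, edgeR quasi-likelihood FDR 0.941).

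SEC16B, which marks the sites where cargo leaves the endoplasmic reticulum, had 61.6, 82.7 and 101 CPM in the lowest, median and highest BCB positive oocyte. In BCB negative oocytes it had 50.7, 86.6 and 298 CPM. Oocytes 6, 66, 86 and 88, all BCB negative and from 3 runs, lay above 200 CPM and above every BCB positive oocyte, and 2 BCB negative oocytes lay below all of these. The log2 fold change of -0.76 ± 0.31 (SE) had an edgeR quasi-likelihood FDR of 0.867.

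**Figure D3:**
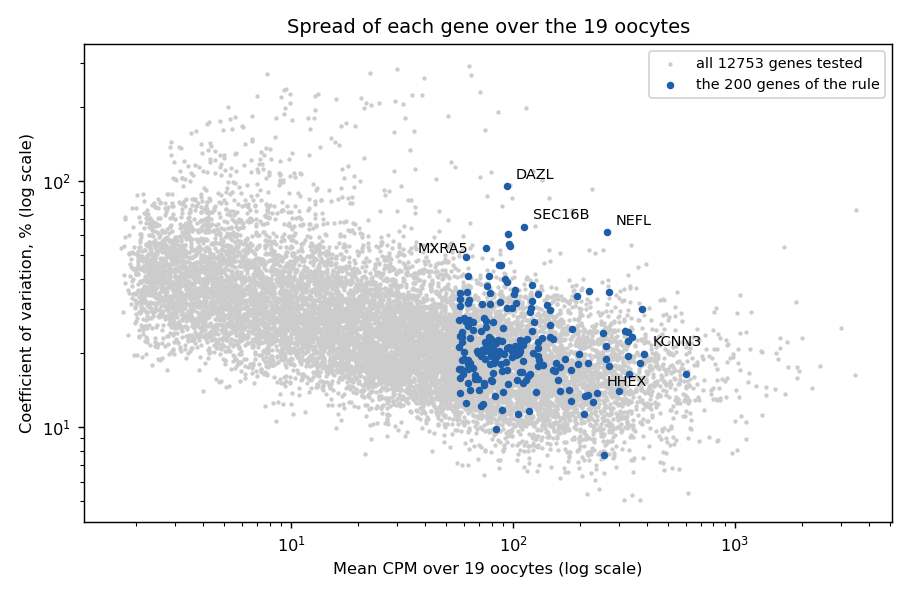
Coefficient of variation in percent against mean CPM over the 19 oocytes, both on log scales, for the 12753 genes tested (gray) and the 200 oocyte-restricted genes (blue). DAZL, at 95.02%, SEC16B, at 65.1%, and NEFL, at 61.9%, lie highest among the 200 genes, and HHEX, at 13.8%, lies near the bottom of the named ones.

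The first comparison asked whether the transcripts differed with BCB class. It was fitted to all genes with a CPM above 2 in at least 9 oocytes, which included all 200. None of the 200 genes passed an FDR of 0.01 (edgeR quasi-likelihood test with Benjamini-Hochberg adjustment, background 0% of genes), and the lowest FDR was 0.843. DESeq2 also called 0 of the 200, with a background of 0.00784%. At an unadjusted p under 0.05 edgeR listed 17 of the 200 (8.5%), 4 higher and 13 lower in BCB positive oocytes, against a background of 5.58% of genes tested, 2.48% higher and 3.1% lower. DESeq2 listed 18 (background 6.09%). The median log2 fold change of the 200 genes was -0.02, and that of all genes tested was -0.01. Without oocyte 72, 7 were higher and 10 lower (background 5.84% in both directions), and 13 of these were among the first 17. With the summed cumulus markers as a covariate, 9 were higher and 8 lower, 8.5% of the 200 against a background of 9%, and 12 of these were among the first 17. With the run of numbers as a covariate, 24 (12%) were listed against a background of 12.1%, and 8 of these were among the first 17. The values that follow describe single genes, and no FDR threshold was passed by any of them.

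Of the 8 genes of transcription and RNA, 1 was higher and 2 were lower at an unadjusted p under 0.05, against 2.48% and 3.1% of all genes tested. Since the names lean towards a low p, nothing is read from this or the other group counts. NR3C2, the mineralocorticoid receptor, had 308, 367 and 434 CPM in the lowest, median and highest BCB positive oocyte and 193, 322 and 377 CPM in BCB negative oocytes, with a log2 fold change of 0.24 ± 0.10 (SE). The groups overlapped. ESRP1, a splicing regulator of epithelia, had 131, 182 and 198 CPM against 160, 217 and 288 CPM (log2 fold change -0.27 ± 0.10), and 7 of the 10 BCB negative oocytes lay above all BCB positive ones. The homeobox gene NOTO had 51.0, 87.1 and 116 CPM against 90.4, 115 and 129 CPM (-0.32 ± 0.13), and 5 of the 9 BCB positive oocytes lay below all BCB negative ones. HHEX, OLIG1 and PAX9, all developmental transcription factors, and ZGLP1, a GATA-like factor of the germ line, had log2 fold changes of 0.11, 0.10, 0.00 and 0.22.

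Among the 7 channels, transporters and receptors, 1 was higher and 1 was lower at that threshold (background 2.48% and 3.1%). KCNN3, a calcium-activated potassium channel, had the lowest p of the 200 genes (edgeR quasi-likelihood p = 0.00375, FDR 0.843). It had 357, 413 and 620 CPM in the lowest, median and highest BCB positive oocyte and 272, 366 and 382 CPM in BCB negative oocytes, with a log2 fold change of 0.34 ± 0.11 (SE). Of the 9 BCB positive oocytes, 7 lay above every BCB negative oocyte, and the 3 highest were those of complexes 17, 19 and 24. GPR158, a receptor for glycine, had 42.0, 54.2 and 59.3 CPM against 53.9, 59.6 and 83.5 CPM (-0.26 ± 0.09), with oocyte 86 the highest. COLEC12, a scavenger receptor, ranged from 46.8 to 181 CPM over both groups with a log2 fold change of 0.41 ± 0.26. The bile acid carrier family member SLC10A4, the efflux pump ABCC2 and the receptors GPR160 and GPR179 had -0.36, -0.17, 0.25 and -0.25.

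Of the 5 genes of traffic and cytoskeleton, 3 were lower at an unadjusted p under 0.05 (background 3.1%). These were SEC16B, given above, the kinesin motor KIF5C and the secretory small GTPase RAB3C. KIF5C had 39.0, 58.4 and 92.9 CPM in the lowest, median and highest BCB positive oocyte and 54.7, 84.2 and 111 CPM in BCB negative oocytes (log2 fold change -0.39 ± 0.16). RAB3C had 56.3, 71.3 and 91.6 CPM against 63.6, 86.9 and 105 CPM (-0.23 ± 0.10). Both overlapped between the groups. The clathrin adaptor subunit AP1M2 had 0.17 and NEFL the 0.42 given above.

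The 3 enzymes, MOGAT1 of triglyceride synthesis, CDS1 of phospholipid synthesis and MGAT5B of sugar chain branching, had log2 fold changes of -0.17, -0.12 and 0.21, and none was under p 0.05. Of the 3 matrix genes, 1 was higher at that threshold (background 2.48%). SMOC1, a secreted calcium-binding protein, had 53.1, 95.1 and 104 CPM against 45.9, 68.6 and 96.2 CPM (0.29 ± 0.13). The aggrecan-cleaving protease ADAMTS4 had 0.28 and the matrix protein MXRA5 had -0.40. The 3 signalling genes, the CDK5 activator CDK5R2, the phosphatase PPEF2 and the AKT coactivator TCL1A, had -0.11, -0.19 and -0.17. Of the 4 others, FAM107B was lower at that threshold (-0.32 ± 0.13, background 3.1%), and TTC24, PRUNE2 and C15H11orf16 had 0.35, -0.32 and -0.07. Among the genes without a symbol, ENSBTAG00000048049 had the largest positive value of the 200, 0.47 ± 0.19, and ENSBTAG00000023697 the most negative one after DAZL, -0.83 ± 0.33.

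**Figure D4:**
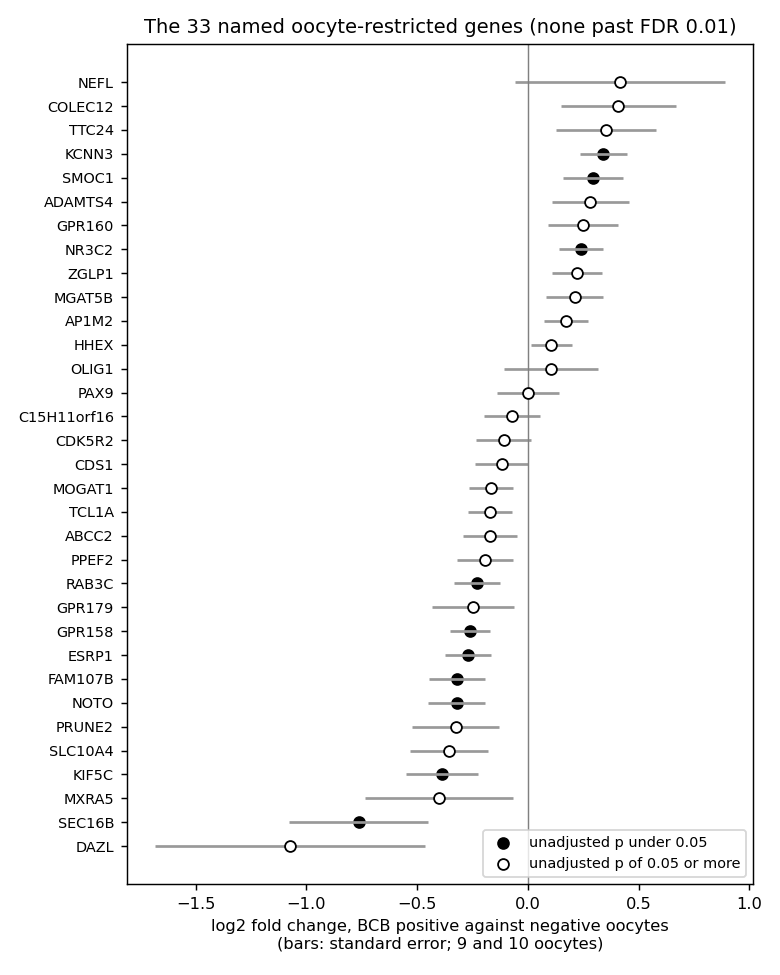
Log2 fold change of the 33 named genes, BCB positive against BCB negative oocytes, with the standard error as a bar and filled points for an unadjusted p under 0.05 in edgeR's quasi-likelihood test. Values run from -1.07 for DAZL to 0.42 for NEFL, 10 points are filled (3 higher and 7 lower), and no gene passed an FDR of 0.01.

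The same comparison within complexes 65 to 74 took 6 BCB positive and 3 BCB negative oocytes. These oocytes are part of the comparison above and so are not independent of it. None of the 200 genes passed an FDR of 0.01 (edgeR quasi-likelihood, background 0%), and the lowest FDR was 0.0507, that of MXRA5. DESeq2 called 14 of the 200, with a background of 3.82%. At an unadjusted p under 0.05 edgeR listed 23 genes higher and 28 lower, 51 in all, against a background of 20.8% (10.4% higher and 10.4% lower). Scaled to library totals alone the split was 29 and 21, with a background of 13.7 and 7.1%, and without oocyte 72 it was 34 and 25, with a background of 22.3% in both directions. The median log2 fold change of the 200 genes was -0.07 and that of all genes tested 0.02.

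MXRA5 had values of 49.6, 117, 81.1, 63.4, 74.8 and 66.5 CPM in BCB positive oocytes 69 to 74 and 27.0, 33.1 and 26.1 CPM in BCB negative oocytes 65, 66 and 68. These groups did not overlap, and the log2 fold change was 1.34 ± 0.24 (SE). Over all 19 oocytes it had the opposite sign, at -0.40 ± 0.33, and 0.58 with the run of numbers as a covariate. NR3C2 and SMOC1 had 0.52 and 0.58 within the run, and KIF5C and NOTO -0.63 and -0.47, with edgeR quasi-likelihood FDR values from 0.0633 to 0.227. NEFL had the highest value of the 200 genes within the run, 1.44 ± 0.66 (SE, edgeR quasi-likelihood FDR 0.257), with 106 to 476 CPM in BCB positive oocytes and 61.6, 186 and 30.1 CPM in BCB negative oocytes. The groups overlapped, and over all 19 oocytes with the run as a covariate the NEFL value was 1.00. Within complexes 65 to 74, SEC16B and DAZL had -0.70 and -1.52, and KCNN3 and FAM107B had 0.15 and 0.01.

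**Figure D5:**
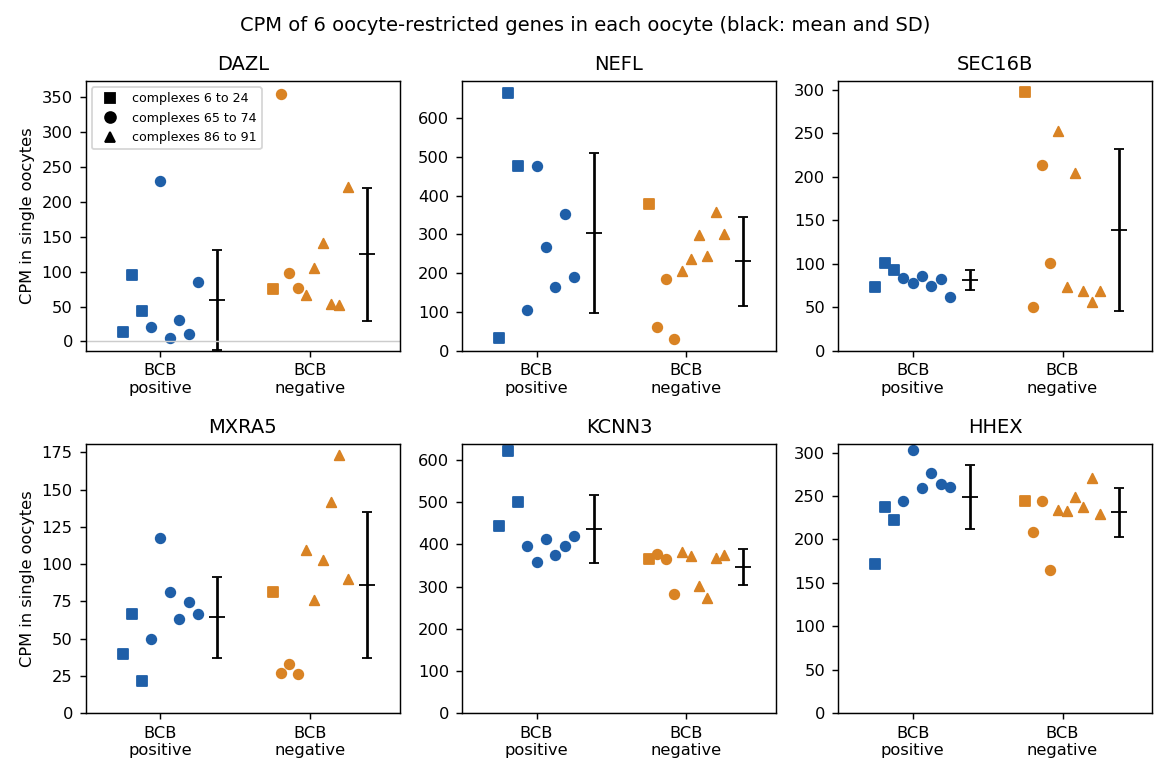
CPM of DAZL, NEFL, SEC16B, MXRA5, KCNN3 and HHEX in each oocyte, by BCB group (color) and run of complex numbers (shape), with the mean and SD in black (n = 9 and 10). DAZL and NEFL spread widely in both groups, SEC16B is above 200 CPM in 4 BCB negative oocytes, MXRA5 is lowest among BCB negative oocytes in complexes 65, 66 and 68, and HHEX stays within 165 to 303 CPM.

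The run of numbers was compared within 1 BCB class, with 6 BCB negative oocytes of complexes 86 to 91 against 4 of lower numbers. Depth differed without overlap, with 19195112 to 29810354 counts in complexes 86 to 91 against 9389803 to 16345963. The summed cumulus markers had a median of 53.4 CPM (38.1 to 350) against 34.4 CPM (23.6 to 52.4). The part of depth and of these transcripts was not tested. None of the 200 genes passed an FDR of 0.01 (edgeR quasi-likelihood, background 0.0462%), and DESeq2 called 14 (background 4.78%). At an FDR of 0.05 edgeR called 14 of the 200 (7%), against a background of 3.65%. With no filter on low counts it called 3 (1.5%, background 0.93%), and DESeq2 called 26 (13%, background 12.3%). Of the 14 genes, 10 were higher in complexes 86 to 91, by 0.50 to 1.39 on the log2 scale, and 4 were lower, with values of -0.38 to -0.65 (background 1.57% higher and 2.08% lower). At an unadjusted p under 0.05 there were 31 higher and 25 lower against a background of 25% (12.9% higher and 12.1% lower). With library totals alone there were 44 and 16, with a background of 17.9 and 7.73%. The CPM of the groups did not overlap in 19 of the 200 genes (9.5%), with a background of 7.03% of the 12753 genes tested over all 19 oocytes. Of the 14 genes, 12 were among them, which is no further support since the same oocytes were used for the call. Leaving out 1 of the 4 oocytes of lower numbers changed the count at an FDR of 0.05, to 31 (15.5%, background 12.3%) without oocyte 6 and to 0 without oocyte 65, 66 or 68 (background 0, 0.0619 and 0%).

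The 2 named genes among the 14 were MXRA5 and GPR179, an orphan receptor known from retinal bipolar cells. MXRA5 had 109, 75.7, 103, 142, 173 and 90.1 CPM in oocytes 86 to 91 and 81.4, 27.0, 33.1 and 26.1 CPM in oocytes 6, 65, 66 and 68. Oocyte 6 lay within the range of the first group, and the log2 fold change was 1.39 ± 0.34 (SE, edgeR quasi-likelihood FDR 0.0480). GPR179 had 71.4, 59.4, 66.5, 72.02, 81.5 and 102 CPM against 53.1, 48.9, 40.0 and 30.8 CPM, without overlap, and a log2 fold change of 0.73 ± 0.18 (FDR 0.0461, same test). Between BCB groups over all oocytes, GPR179 had 27.5, 53.3 and 71.1 CPM in the lowest, median and highest BCB positive oocyte and 30.8, 62.9 and 102 CPM in BCB negative oocytes. Oocytes 65, 66 and 68 enter both this comparison and the one within complexes 65 to 74, so the values of MXRA5 in them share those 3 oocytes. BCB class was the same in all oocytes of this comparison, and complexes 86 to 91 held no BCB positive oocyte to set beside them.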

How the data were processed

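RNA of 19 single oocytes and of their cumulus cells was primed with oligo-dT, amplified and sequenced in paired ends by the authors. The deposited values are raw counts per Ensembl gene, whole numbers without normalization. The submitters' processing notes name HISAT2 2.1.0, featureCounts 1.6.0 and the ARS-UCD1.2 assembly, and the authors removed duplicates. Whether strand was used in counting is not given in the sources used here, so genes that overlap or lie antisense may share reads. CPM does not correct for length, so the rank of a gene by CPM also depends on its length.

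Groups were taken from the sample labels. The 200 genes and the role lists were chosen with earlier results of these data known, and the role groups after the names were seen. Fits used edgeR 4.0.16 (TMM, robust quasi-likelihood, Benjamini-Hochberg over all genes tested) in R 4.3.3, on genes over 2 CPM in 9 of 19, 3 of 9 or 4 of 10 oocytes, and were tested on simulated data. The SE is the log2 fold change divided by the square root of the F statistic. DESeq2 1.42.0 and the other settings were alternatives. Leaving out cumulus libraries 66 and 68 or oocyte 72 was chosen after seeing the data. Python 3.11.15, pandas 2.3.3 and scipy 1.17.1 were used for the remainder. Genes named are those with a symbol, the extremes of level, spread and fold change, and those at the edges of the rule. Of 27607 identifiers, 4934 had a symbol. Sequences and positions are not used here. Some genes that the rule for names covers are not reported here.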

Additional observations from a re-analysis of the deposited data

Results flagged for a closer look

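In groups of 9 and 10 oocytes, the highest or the lowest value was compared with its nearest neighbor as a share of the group's range. This marked 3 of 70 groups, and chance alone marks about 1 in 20. The share of the 200 genes was 2.06% in the BCB positive oocyte 72, against 2.35% in the next lowest. DAZL was at 230 CPM in the BCB positive oocyte 70, against 95.04 CPM in the next highest. GPR158 was at 83.5 CPM in the BCB negative oocyte 86, against 68.4 CPM in the next highest.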

How the results depend on the processing

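In the comparison of BCB groups over 19 oocytes, 0 of the 200 genes passed the threshold in each of the 11 other settings, and 16 to 24 were under an unadjusted p of 0.05. The 24 came with the run of numbers as a covariate, where 12.1% of all genes were under it, and the others were 16 to 18, with 5.35 to 9% of all genes. For 18 single genes (15 with a symbol), 179 of 180 values under the alternatives kept their direction. The exception was MXRA5, at 0.58 (edgeR quasi-likelihood FDR 0.534) with the run of numbers as a covariate. With the log10 library total MXRA5 was at -0.06. None of the 180 came near the threshold, with a lowest FDR of 0.249. These genes were named in part by the main fit. The settings reuse the same oocytes, so the kept directions are not independent support. The run also moved COLEC12 to 0.65, ENSBTAG00000048049 to 0.77, ESRP1 to -0.18, GPR158 to -0.13, NEFL to 1.00, NR3C2 to 0.39 and SMOC1 to 0.45, each by over 1.5 times. The DESeq2 Wald test gave 14 genes within complexes 65 to 74 (background 3.82%) and 14 for complexes 86 to 91 against lower numbers (4.78%), where edgeR gave 0, and an FDR of 0.05 gave 14 in the latter (3.65%). Leaving out 1 oocyte of lower number gave 0 to 4 genes at an FDR of 0.01, with the 4 (2%) without oocyte 6, where 2% of all genes passed. The cause of these differences was not tested.

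Under other rules, the genes shared with the 200 were 132 with a highest cumulus CPM under 5, 88 with a limit of 0.5 CPM, 95 with a limit of 2 CPM and 103 without cumulus libraries 66 and 68. They were 170 with TMM-adjusted totals and 197 with a ranking by the median. The smaller cumulus totals limit how well a mean near 1 CPM is known. No paired analysis was possible because BCB positive and BCB negative complexes share no complex number, and the oocyte and cumulus levels chose the genes.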
